A study of Mus musculus with 12 samples.

Results

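Potassium channel genes were taken as every gene whose symbol opens with Kcn, further lower-case letters and a number. The rule found 93 genes, all of them among the 29957 named genes of the microglia table and 79 of them among the 14663 of the whole hippocampus table, and it used no measured value. They comprised 40 pore-forming subunits of voltage-gated channels, 12 auxiliary subunits of those channels, 15 inward rectifiers, 14 tandem-pore-domain channels and 12 subunits of calcium- or sodium-activated channels. RNA had been sequenced from C57BL/6 mice, 3 samples a group: microglia of the hippocampus from mice of 24 months and of 3 months (old and young libraries below), and whole hippocampus from mice of 18 months and of 6 months. The labels name no treatment or altered allele, and they give neither the way the microglia were isolated nor whether each sample came from its own mouse. The p-values therefore measure the spread between these samples, which may be technical.

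Potassium channels let potassium leave the cell, which holds the membrane near its resting voltage and, in neurons, ends the action potential. Voltage-gated channels open on depolarization, inward rectifiers pass current best near rest, tandem-pore-domain channels leak at all voltages, and other channels open when calcium or sodium enters. Neurons use many of these families side by side. In microglia the resting potential rests largely on the leak channel THIK-1, encoded by Kcnk13, on which the movement of their processes and the release of interleukin 1 depend.

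The microglia libraries held 8067905 to 14217018 estimated counts. Whole-hippocampus values were available as counts scaled between samples by the authors (normalized counts), whose low values step in units that correspond to roughly 540144 to 1925807 reads per sample, so the hippocampus was the shallower data set. Of 7833 genes with a mean above 10 CPM in microglia, 186 (2.37%) were missed by 24-month library 1 and 393 (5.02%) by 3-month library 1, while each other library missed 26 to 61. Microglial markers such as Cx3cr1 and P2ry12 summed to 48336, 49488 and 65035 CPM at 24 months, against 72249, 69723 and 68202 CPM at 3 months. Neuronal markers (10 genes, Tubb3 and Slc17a7 at 0 in all 6 libraries) summed to 1.26, 20.2 and 10.2 CPM at 24 months and 0.0744, 10.6 and 3.53 CPM at 3 months. Smooth muscle and pericyte markers stood at 292 CPM in 24-month library 1 and 38.6 CPM in 24-month library 2, and at 0.298 to 0.870 CPM elsewhere. Neutrophil and monocyte markers summed to 2366 CPM in 24-month library 1 and to 1.97 to 50.6 CPM in the others.

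Microglia expressed a small and uneven part of the potassium channel repertoire. Of the 93 genes, 44 (47.3%) had no count in any of the 6 libraries, where 41.8% of all genes in the table had none; a total of 0 allows at most 0.0453 CPM over the libraries together (3 counts, counting error only). A mean of at least 1 TPM, a level per transcript length, was reached by 13 genes (14.0%, against 37.8% of all genes), and a mean of at least 5 TPM by 6. Kcnk13 led at 91.1 TPM, and held 42.2% of the summed TPM of all members. The 4 leading genes together held 82.8%, between 75.7% and 87.8% in single libraries. By contrast, 25 of the 40 voltage-gated pore-forming genes were at 0 and 1 of them, Kcnd1, reached 1 TPM.

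**Figure D1:**
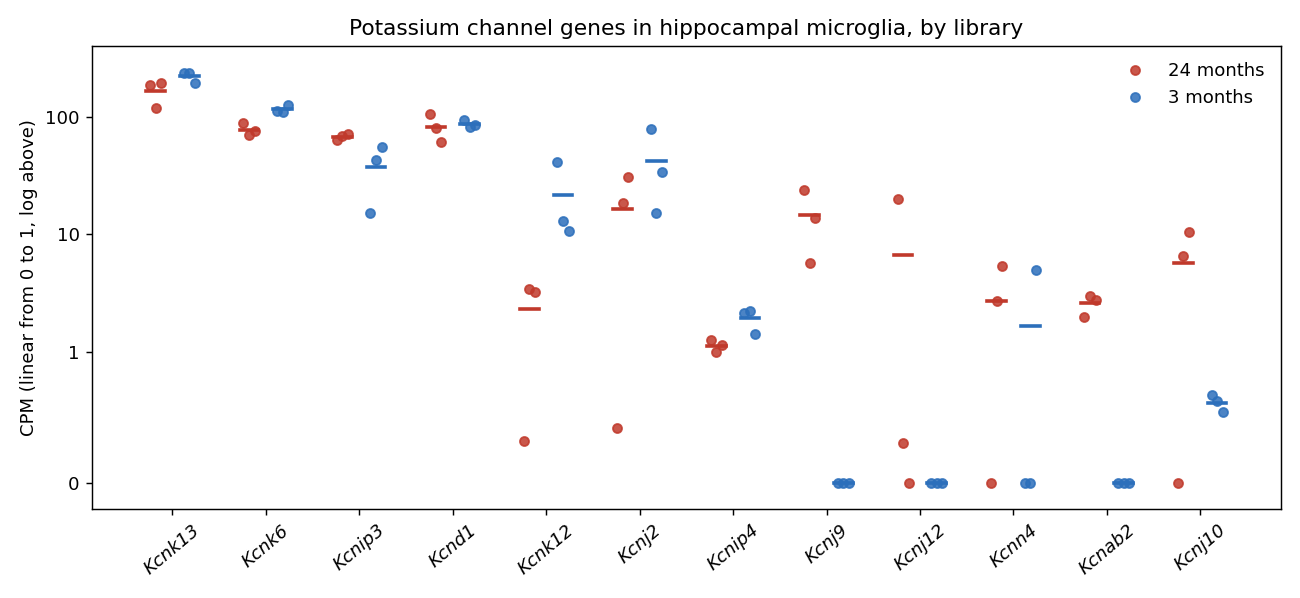
Level of 12 potassium channel genes in each microglia library, in CPM (linear from 0 to 1, log scale above); points are libraries, short lines are group means, with 24 months to the left of 3 months. Kcnk13, Kcnk6 and Kcnd1 lie at or above 61.3 CPM in every library, while Kcnj9 and Kcnab2 are at 0 in the 3 young libraries and above 1 CPM in the 3 old ones.

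The leading tandem-pore genes were lower on average in old microglia, by amounts that did not pass over all genes. Kcnk13, the THIK-1 leak channel (chromosome 12, 99964499 to 100062682, GRCm38), stood at 184, 119.6 and 192 CPM in 24-month libraries 1 to 3, against 236, 235 and 194 CPM in 3-month libraries 1 to 3. The old libraries lay below the young ones, 24-month library 3 and 3-month library 3 being nearly equal. The log2 difference was -0.42 ± 0.24 (SE; edgeR's quasi-likelihood test with Benjamini-Hochberg adjustment, adjusted p = 0.973). Kcnk6, which encodes TWIK-2, a potassium efflux route upstream of the inflammasome in macrophages, was at 88.8, 69.5 and 75.1 CPM in 24-month libraries 1 to 3, against 111, 111 and 127 CPM in 3-month libraries 1 to 3. The old libraries again all lay under the young ones, with a log2 difference of -0.57 ± 0.25 (SE, adjusted p = 0.898). Kcnk12, which encodes THIK-2, the closest relative of THIK-1, had the greatest difference of the family, with 0.315, 3.41 and 3.22 CPM in 24-month libraries 1 to 3, against 41.5, 12.9 and 10.6 CPM in 3-month libraries 1 to 3. The groups did not overlap, but 3-month library 1 was high and 24-month library 1 low; the log2 difference was -3.22 ± 1.29 (SE, adjusted p = 0.875) and -1.82 when library 1 was dropped at both ages. Summed over the 14 tandem-pore genes, the level was 112, 84.8 and 122 TPM at 24 months and 177, 157 and 153 TPM at 3 months, groups that do not overlap. The sum of the microglial markers was likewise lower in each old library than in each young one, led by 24-month libraries 1 and 2; its part in these differences was not tested.

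Kcnd1 and the calcium-binding subunits that join its channels were the main voltage-gated genes of microglia. Kcnd1, which encodes an A-type pore subunit, was at 106, 80.4 and 61.3 CPM in 24-month libraries 1 to 3, against 93.8, 81.1 and 85.2 CPM in 3-month libraries 1 to 3, groups that overlap fully, with a log2 difference of -0.067 ± 0.31 (SE). Kcnip3, which encodes a calcium-binding partner of this channel family that also represses transcription in the nucleus, was at 63.1, 68.9 and 71.0 CPM in 24-month libraries 1 to 3, against 15.2, 42.7 and 54.9 CPM in 3-month libraries 1 to 3. In CPM all old libraries were above all young ones, and the old ones were close together. The log2 difference of 0.85 ± 0.52 (SE) did not pass (adjusted p = 0.973), and it was 0.56 with a transcript length offset. In TPM the ages overlapped, at 31.9, 36.9 and 38.7 in 24-month libraries 1 to 3, against 15.1, 22.4 and 37.1 in 3-month libraries 1 to 3. Kcnip4, of the same partner family, was lower and separated, at 1.13 ± 0.128 CPM in old and 1.94 ± 0.448 CPM in young libraries (SD, n = 3 each), with a log2 difference of -0.77 ± 0.87 (SE, adjusted p = 0.996); Kcnip4 shares 7.36% of its exon bases with antisense genes, and the counting is not stated to use strand. Kcnq3, a subunit of the neuronal M-current, and Kcnc1, of fast-spiking neurons, reached at most 3.51 and 3.98 CPM. Their log2 differences were 1.28 ± 0.98 for Kcnq3 and 0.82 ± 0.99 for Kcnc1 (SE). Kcnh7 was at 12.6 CPM in 3-month library 1 and at 0.284 to 1.60 CPM in the old and 0.747 and 0.995 CPM in the other young libraries. Kcna3 and Kcna5, voltage-gated channels reported in activated microglia in culture, had no count in any library.

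Among inward rectifiers, Kcnj9 and Kcnj12 had no count in the young libraries and were counted in 3 and 2 of the old ones. Kcnj9, which encodes the G-protein-gated subunit GIRK3 of neurons (chromosome 1, 172320501 to 172329318, GRCm38), had 229, 57.0 and 144 estimated counts in 24-month libraries 1 to 3 and 0 in each 3-month library. In CPM these are 24.0, 5.72 and 13.6 at 24 months, at least 175-fold higher than the young libraries if these are set to 3 counts in total. This bound covers counting error only. It does not cover genes missed by a library, as 3-month library 1 missed 393 genes with a mean above 10 CPM. Without 24-month library 1 the bound was at least 117-fold higher. The authors' deposited table gives Kcnj9 a log2 change of 9.82 with an adjusted p of 6.79e-07, where 1.54% of the genes with an adjusted p in that table passed as higher; edgeR's adjusted p was 0.539. Beside these levels, in 24-month libraries 1 to 3, neuronal markers summed to 1.26, 20.2 and 10.2 CPM, smooth muscle and pericyte markers to 292, 38.6 and 0.757 CPM, and neutrophil and monocyte markers to 2366, 50.6 and 3.60 CPM. Their part in the Kcnj9 level was not tested. Kcnj12, which encodes Kir2.2 of muscle and neurons, had 189, 3.00 and 0 estimated counts at 24 months and 0 in the young libraries, so it rests on 24-month library 1, the library with 213 CPM of the smooth muscle gene Acta2. The part of such cells in its level was not tested. Kcnj2, which encodes Kir2.1, the classical inward rectifier of microglia, varied widely within each age, at 0.420, 18.5 and 30.7 CPM in 24-month libraries 1 to 3, against 78.3, 15.0 and 33.6 CPM in 3-month libraries 1 to 3, and its log2 difference of -1.36 ± 1.27 (SE) became 0.014 when library 1 was dropped at both ages. Kcnj10, the glial Kir4.1, was at 0, 6.52 and 10.5 CPM in 24-month libraries 1 to 3, against 0.670, 0.622 and 0.543 CPM in 3-month libraries 1 to 3, high in the old libraries other than library 1. Kcnj16, its usual partner, stayed at or under 3.21 CPM, and Kcnj8, the rectifier of pericytes, had no count in any library. Astrocyte markers summed to 343, 458 and 332 CPM in the old and 129.9, 238 and 266 CPM in the young libraries, most of it Slc1a3. Gfap was at 0, 15.3 and 12.8 CPM in 24-month libraries 1 to 3, against 13.7, 0 and 0 CPM in 3-month libraries 1 to 3. Aldoc was at 39.3, 44.0 and 18.0 CPM in the old and 0.149, 10.8 and 5.63 CPM in the young libraries. Gja1 was counted in 24-month library 2 alone and Aqp4 in 3-month library 3 alone. Of 5 tested astrocyte markers, 4 had a higher and 1 a lower fitted mean at 24 months (background 50.5% and 49.5%). The part of astrocytes in the Kcnj10 level was not tested.

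Kcnab2, which encodes the beta subunit that carries voltage-gated channels to the axon (chromosome 4, 152390742 to 152477871, GRCm38), was the other gene with counts in the 3 old libraries and none in the young ones. It had 18.8, 30.0 and 29.0 estimated counts at 24 months and 0 in each 3-month library, or 1.99, 3.01 and 2.74 CPM at 24 months, at least 31.2-fold higher by the same bound. The authors' deposited table gives an adjusted p of 0.00385 for Kcnab2 and edgeR an adjusted p of 0.539. Of the calcium-activated channels, Kcnn4, which carries calcium-activated current in microglia and lymphocytes, was present in some libraries of both ages, at 0, 2.71 and 5.40 CPM in 24-month libraries 1 to 3, against 0, 0 and 4.96 CPM in 3-month libraries 1 to 3. Kcnmb4, a neuronal beta subunit of the large-conductance channel, was at 0.610 ± 0.381 CPM in old and 0.717 ± 0.734 CPM in young libraries (SD, n = 3 each). Kcnmb3 was counted in 1 library of each age, 24-month library 2 and 3-month library 2.

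Over all members, edgeR called 0 of the 13 potassium channel genes that passed the low-count filter, as it called 0 of all 10663 genes (background 0%). Fitted means were higher at 24 months for 6 of them and lower for 7 (background 50.5% and 49.5%). At an unadjusted p under 0.05 there were 2 higher, Kcnab2 and Kcnj9, and 1 lower, Kcnk12, where 3.52% and 2.02% of all tested genes were, 5.53% together. DESeq2's Wald test called 2 of the 22 members to which it gave an adjusted p, again Kcnj9 and Kcnab2, both higher, where 1.55% of all genes with an adjusted p were called higher. In CPM the ages did not overlap for 3 tested members with the old libraries higher and for 4 with the old libraries lower (background 7.25% and 6.22%). Kcnj9 and Kcnab2 passed the filter through the old libraries alone, so these counts cannot be read as support. The summed level of all members was 207, 174 and 207 TPM at 24 months and 251, 218 and 238 TPM at 3 months, with every old library below the young ones. Among the families, only the tandem-pore genes, led by Kcnk13, had sums that separated the ages in TPM. Voltage-gated auxiliary genes summed to 39.8, 42.3 and 42.6 TPM at 24 months and 19.5, 27.7 and 44.1 TPM at 3 months. In CPM the auxiliary sums, led by Kcnip3, separated with the old libraries higher. They were 67.4, 75.8 and 75.3 CPM at 24 months and 17.3, 45.5 and 59.9 CPM at 3 months. The sums of the remaining families overlapped in either unit, so the lower total does not describe the members at large.

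By family, a count in any microglia library was found for 12 of 15 inward rectifiers, 7 of 14 tandem-pore genes, 8 of 12 calcium- or sodium-activated genes and 7 of 12 voltage-gated auxiliary genes. The 14 members not among the genes of the hippocampus table included Kcnn4 and Kcnmb3, above, and Kcna7, which reached 2.83 CPM in microglia; the others reached at most 1.22 CPM.

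The channels abundant in microglia and those abundant in whole hippocampus were largely different genes. The tables were normalized separately, so levels were compared only within each: TPM in microglia, and in hippocampus the normalized count per kilobase of the average transcript length given in the microglia file, an approximation. Of the 12 highest genes in each tissue 2, Kcnip3 and Kcnip4, were shared (16.7% of each list). Kcnk13 lay at percentile 91.1 of the 17615 genes detected in microglia and at percentile 33.9 of the hippocampus table. Kcnk6 lay at percentile 79.9 in microglia and 5.70 in hippocampus. Kcnd1 had 74.7 in microglia and 15.6 in hippocampus, and Kcnj2 58.5 in microglia and 6.26 in hippocampus. The beta subunits lay the other way, Kcnab2 at percentile 35.8 in microglia and 95.6 in hippocampus, and Kcnab1 at 34.3 in microglia and 91.8 in hippocampus. Kcnk1, which encodes TWIK-1, had no count in microglia and lay at percentile 86.7 in hippocampus. Kcnc2, a fast channel of inhibitory neurons, had no count in microglia and lay at percentile 70.9 in hippocampus. Of a list of 36 neuronal channel genes, 15 had no count in microglia and all 36 were in the hippocampus table. That list summed to 99.9, 91.3 and 95.2 CPM in the old and 32.9, 51.1 and 64.7 CPM in the young microglia libraries, of which Kcnip3, given above, was the larger part in 5 of the 6 libraries. In hippocampus the 4 leading genes held 36.4% of the members' summed level per kilobase.

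**Figure D2:**
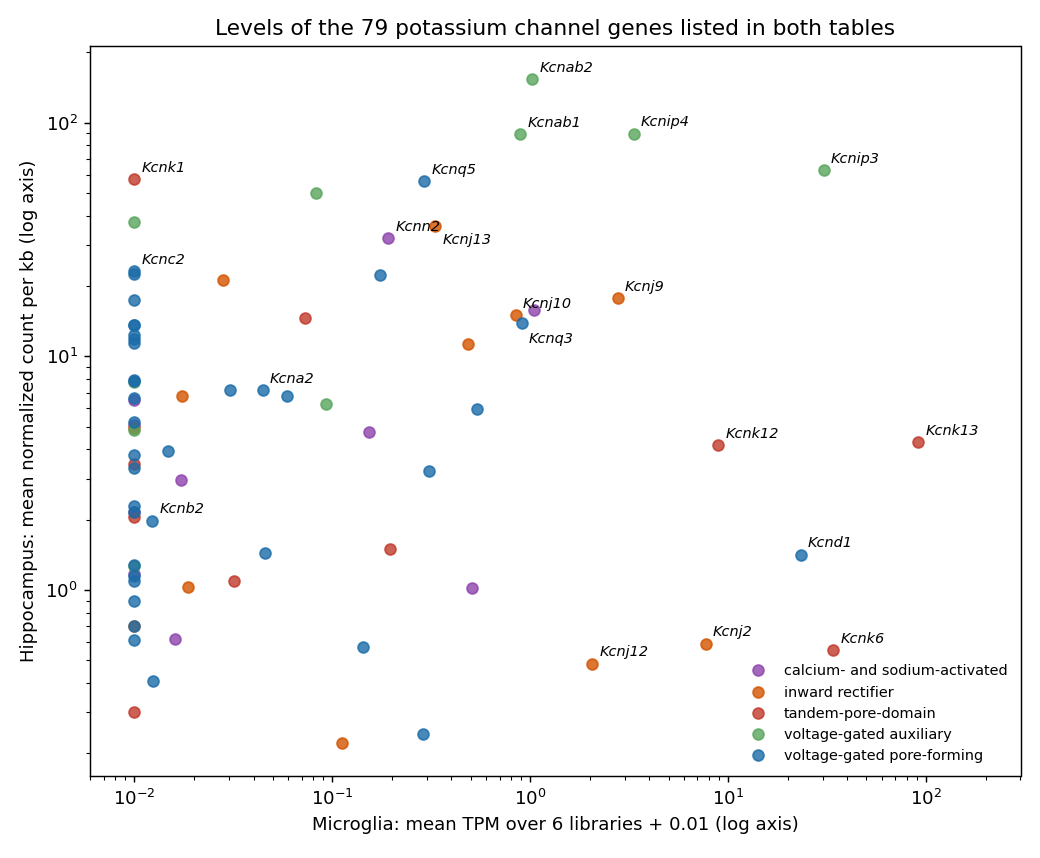
Mean TPM over 6 microglia libraries (horizontal, 0.01 added, log scale) against the mean normalized count per kilobase over 6 hippocampus samples (vertical, log scale) for the 79 potassium channel genes in both tables, coloured by family. Kcnk13, Kcnk6, Kcnd1 and Kcnj2 lie to the lower right, Kcnab2, Kcnab1 and Kcnk1 to the upper left and centre, and Kcnip3 is high on both axes.

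The promoters of Kcnk13, the leading channel gene of microglia, and of Kcnab2 and Kcna2, a pair of axonal channel genes, are shown so that their sequences can be set side by side. RefSeq promoters on GRCm38.p6 (250 bases before to 50 after the start) were matched by symbol for 68 of the 93 genes, with 93 promoters. Each is printed 5′ to 3′ on the gene's own strand, and capitals mark GAGGAA or its reverse complement TTCCTC, the purine box bound by PU.1, a transcription factor of macrophages and microglia. The promoters lie at chr12:99964249-99964548, plus strand for Kcnk13, chr4:152477500-152477799, minus strand for Kcnab2 (the first of its 3) and chr3:107101317-107101616, plus strand for Kcna2.
Kcnk13: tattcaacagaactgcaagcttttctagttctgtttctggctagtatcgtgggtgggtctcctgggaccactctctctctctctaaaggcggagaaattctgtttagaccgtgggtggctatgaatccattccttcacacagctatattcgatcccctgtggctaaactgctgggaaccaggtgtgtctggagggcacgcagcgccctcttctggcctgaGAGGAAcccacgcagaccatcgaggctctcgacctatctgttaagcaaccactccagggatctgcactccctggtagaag
Kcnab2: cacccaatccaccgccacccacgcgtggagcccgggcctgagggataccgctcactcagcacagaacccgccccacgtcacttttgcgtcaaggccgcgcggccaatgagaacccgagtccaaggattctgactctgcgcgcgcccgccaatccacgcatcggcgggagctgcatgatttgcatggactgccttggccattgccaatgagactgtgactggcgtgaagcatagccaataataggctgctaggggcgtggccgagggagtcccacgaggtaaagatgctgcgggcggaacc
Kcna2: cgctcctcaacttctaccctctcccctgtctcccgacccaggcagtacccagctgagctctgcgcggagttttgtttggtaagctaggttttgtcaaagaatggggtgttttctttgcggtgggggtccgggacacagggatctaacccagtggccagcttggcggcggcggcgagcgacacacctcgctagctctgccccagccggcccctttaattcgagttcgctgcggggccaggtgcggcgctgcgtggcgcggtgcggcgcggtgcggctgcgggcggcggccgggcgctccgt
The Kcnk13 window held 1 purine box and 9 CpG dinucleotides at a GC content of 52.7%, while the Kcnab2 and Kcna2 windows held no purine box and 25 and 31 CpG. Promoters 2 and 3 of Kcnab2, not printed, held no purine box and 5 and 3 CpG, fewer than the Kcnk13 window. Searched on both strands, the purine box occurred in 29.0% of the potassium channel promoters and in 28.3% of all 32851 promoters of the table, so its share among the members was near the background. GGGCGG, the GC box bound by Sp1, occurred in 48.4% and 35.7% of them. The purine box also occurred in 6 of 17 promoters (35.3%) of the members highest in hippocampus, without those at 5 TPM or more in microglia. Of the latter, 4 of 6 promoters held it. These are few promoters, and the 3 windows printed do not stand for either set. A match of letters is a description and not a site.

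In whole hippocampus, 49 of the 79 listed genes (62.0%) had a value in all 6 samples, against 71.1% of all genes in the table, and 71 passed the low-value filter. Among genes with a value in all 6 samples, the smallest p-values lay in voltage-gated genes, led by the axonal subunits Kcnab2 and Kcna2. Kcnab2 was at 261, 223 and 316 normalized counts at 18 months, against 481, 517 and 354 at 6 months. All 18 month samples were below all 6 month samples, and their mean was 59.2% of the 6 month mean. The log2 difference was -0.75 ± 0.19 (SE; limma's moderated test on log2(normalized count + 1), adjusted p = 0.749). In the authors' deposited table Kcnab2 fell, with a log2 change of -0.74 ± 0.18 (SE) and an adjusted p of 0.0259; no other member passed 0.05 there in either direction, where 0.118% of the genes with an adjusted p passed as higher and 0.186% as lower. Its relative Kcnab1, also a beta subunit of these channels, was at 129.9, 165 and 163 normalized counts at 18 months, against 202, 180.2 and 224 at 6 months, separated again, with a log2 difference of -0.41 ± 0.20 (SE, adjusted p = 0.909). In bulk tissue, fewer cells of a type and less RNA per cell cannot be told apart.

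**Figure D3:**
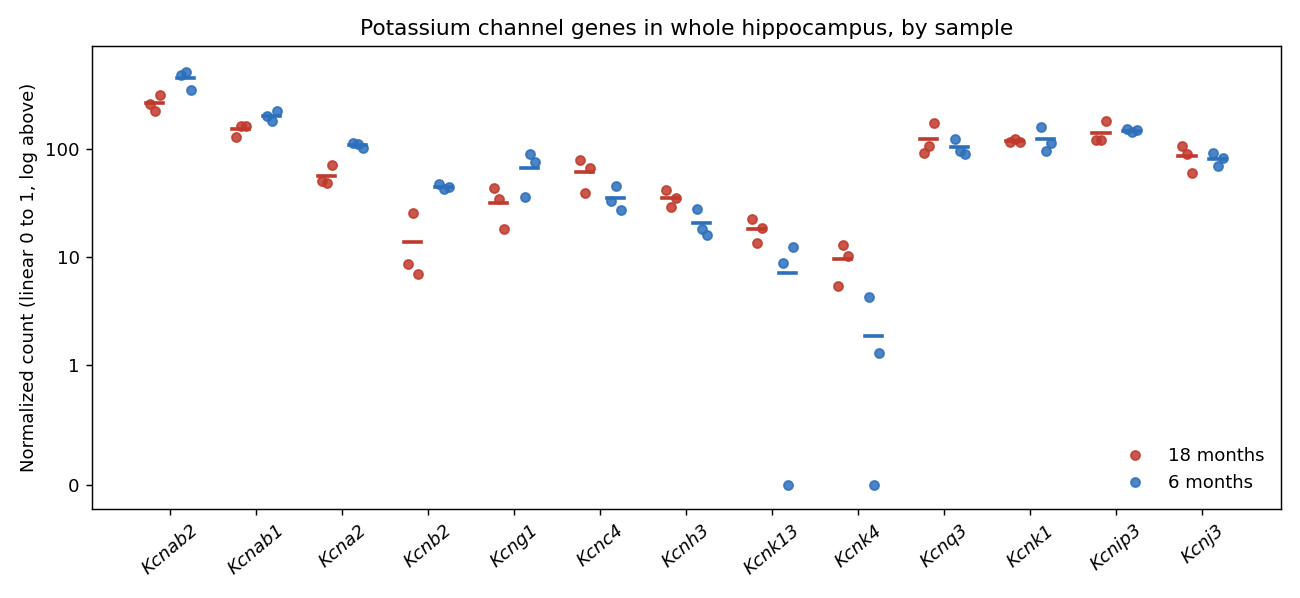
Normalized counts of 13 potassium channel genes in each whole hippocampus sample (linear from 0 to 1, log scale above); points are samples, short lines are group means, with 18 months to the left of 6 months. Kcnab2, Kcnab1, Kcna2 and Kcnb2 have every 18 month sample below every 6 month sample, while Kcnq3, Kcnk1, Kcnip3 and Kcnj3 overlap.

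Kcna2, the pore subunit that these beta subunits accompany along axons, was at 50.3, 48.6 and 70.4 normalized counts at 18 months, against 113, 110.5 and 102 at 6 months. The ages did not overlap, and the 18 month mean was 52.0% of the 6 month mean (log2 difference -0.95 ± 0.27, SE, limma adjusted p = 0.877; adjusted p = 0.150 in the authors' deposited table). Kcna1, with which it forms mixed channels, spread from 16.2 to 68.2 normalized counts at 18 months and from 35.4 to 59.2 at 6 months. Kcna4 and Kcna6, of the same subfamily, had higher means at 18 months with overlapping groups, 40.9 ± 27.5 normalized counts at 18 months and 25.8 ± 9.39 at 6 months (SD, n = 3 each) for Kcna4. For Kcna6 the values were 83.6 ± 34.6 normalized counts at 18 months and 61.4 ± 32.8 at 6 months (SD, n = 3 each); 39.6% of its exon bases are shared with an antisense gene. Kcnb2, which encodes Kv2.2, a delayed rectifier, was at 8.56, 25.7 and 6.91 normalized counts at 18 months, against 47.5, 42.1 and 44.4 at 6 months. The 6 month samples lay close together and the 18 month samples all below them (log2 difference -1.85 ± 0.56, SE, limma adjusted p = 0.877; adjusted p = 0.122 in the authors' deposited table). Kcng1, a silent subunit that joins Kv2 channels, was at 31.7 ± 12.6 normalized counts at 18 months and 66.6 ± 27.4 at 6 months (SD, n = 3 each), with groups that overlapped through 6-month sample 1.

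Other voltage-gated genes differed less against their errors, in either direction. Kcnc4, which encodes Kv3.4, averaged 61.3 ± 20.4 normalized counts at 18 months and 34.9 ± 9.06 at 6 months (SD, n = 3 each), with a log2 difference of 0.77 ± 0.38 (SE). Kcnh3, a forebrain member of the ether-a-go-go family, was at 41.3, 29.3 and 34.9 normalized counts at 18 months, against 28.0, 18.0 and 15.8 at 6 months, the groups just separate (log2 difference 0.77 ± 0.47, SE). Kcnq3, a subunit of the M-current that damps repetitive firing, averaged 124 ± 44.4 normalized counts at 18 months and 104 ± 18.5 at 6 months (SD, n = 3 each). Kcnq5, of the same subfamily and the highest voltage-gated pore gene per kilobase, was at 25.3 to 37.2 normalized counts at 18 months and 24.7 to 28.8 at 6 months. Kcnc2 averaged 119 ± 27.0 normalized counts at 18 months and 109 ± 25.8 at 6 months (SD, n = 3 each). Kcnd2, the main A-type channel of hippocampal dendrites, averaged 52.7 ± 8.45 normalized counts at 18 months and 71.3 ± 11.5 at 6 months (SD, n = 3 each), with a log2 difference of -0.43 ± 0.30 (SE). Of its partners, Kcnip3 had a difference of -0.086 ± 0.22, Kcnip4 of 0.0034 ± 0.33 and Kcnip2 of 0.75 ± 0.55 (SE), the last with 30.3 to 86.1 normalized counts at 18 months and 14.8 to 63.5 at 6 months. Across the 32 tested voltage-gated pore-forming genes 15 had a higher and 17 a lower fitted mean, with a median log2 difference of -0.059, beside -0.037 over all tested genes. The 10 auxiliary genes had 3 higher and 7 lower. Kcnab3, the third beta subunit, spread from 20.3 to 37.8 normalized counts at 18 months and from 16.5 to 61.5 at 6 months. The summed level of the auxiliary genes was 743, 654 and 833 normalized counts at 18 months, against 1012, 1026 and 873 at 6 months, without overlap. Without Kcnab2, its largest item, the sum was 481, 431 and 517 at 18 months and 531, 509 and 519 at 6 months, which overlap.

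**Figure D4:**
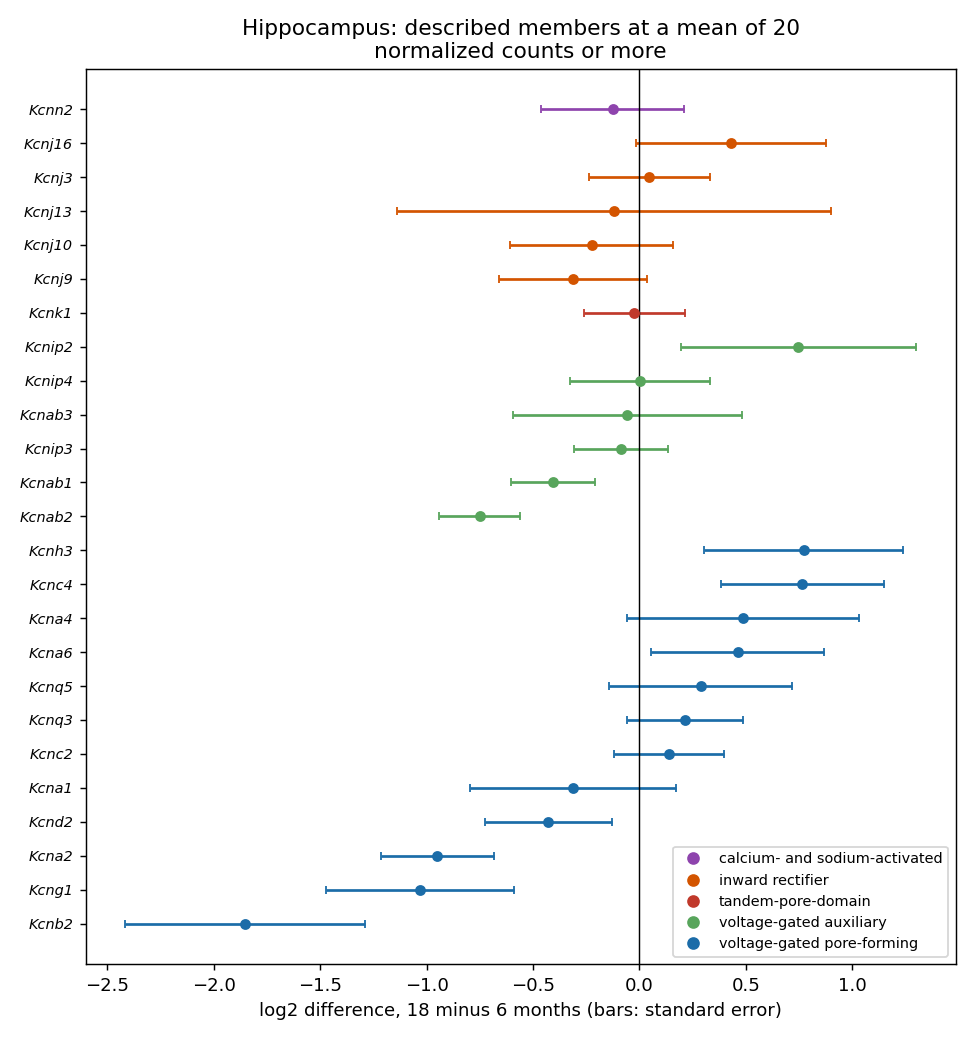
Log2 difference, 18 minus 6 months, with its standard error for 25 of the 36 members with a mean of at least 20 normalized counts in hippocampus, those described in the text, grouped and coloured by family. Kcnab2, Kcna2, Kcnb2 and Kcng1 lie furthest to the left against their errors, and most other bars cross or come near 0.

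No inward rectifier, leak or calcium-activated channel gene passed limma's test, and neither did any voltage-gated gene, as 0 of all 13491 tested genes passed. The abundant inward rectifier, leak and calcium-activated genes overlapped between ages. Kcnj3, a G-protein-gated subunit of neurons, averaged 85.3 ± 24.1 normalized counts at 18 months and 80.8 ± 11.7 at 6 months (SD, n = 3 each). Kcnj9, the gene seen in old microglia, averaged 57.4 ± 23.1 normalized counts at 18 months and 67.8 ± 9.54 at 6 months (SD, n = 3 each). Kcnj6, a subunit of the same channels, was at 6.05 to 8.66 at 18 months and at 6.39, 47.0 and 16.2 at 6 months, with the highest value in 6-month sample 2 and overlapping ages. Kcnj3 shares 31.1% of its exon bases with an antisense gene. Kcnj10, by which astrocytes clear potassium, averaged 70.8 ± 23.2 normalized counts at 18 months and 87.6 ± 49.0 at 6 months (SD, n = 3 each). Its partner Kcnj16 averaged 46.4 ± 22.0 normalized counts at 18 months and 33.2 ± 12.2 at 6 months (SD, n = 3 each). Kcnj8 was listed at 5.43, 1.20 and 2.35 at 18 months and at 0 in all 6 month samples, and Kcne3 at 0 in all 18 month samples and at 3.21, 1.58 and 3.15 at 6 months; both passed the filter through a single age, so they had to differ, and lie near the value of a few reads. Kcnk1, the most abundant tandem-pore gene, averaged 119 ± 4.64 normalized counts at 18 months and 124 ± 33.1 at 6 months (SD, n = 3 each). Kcnk4, which encodes the mechanically gated TRAAK, was at 5.41, 13.0 and 10.2 normalized counts at 18 months, against 4.22, 0 and 1.29 at 6 months, with a log2 difference of 2.13 ± 0.93 (SE, adjusted p = 0.905), 1.53 to 2.73 with 1 sample left out; it shares 13.1% of its exon bases with Catsperz. Calcium-activated channels overlapped as well: Kcnn2, which encodes the SK2 channel of pyramidal cells, averaged 68.6 ± 21.7 normalized counts at 18 months and 75.1 ± 24.9 at 6 months (SD, n = 3 each). Kcnma1, the pore of the large-conductance channel, was low in these data, at 5.37, 5.50 and 5.84 normalized counts at 18 months, against 11.1, 13.8 and 5.98 at 6 months, with the 18 month samples just below.

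The microglial channel was visible in whole hippocampus and had its higher mean at the older age. Kcnk13 was at 22.6, 13.5 and 18.5 normalized counts at 18 months, against 8.76, 0 and 12.4 at 6 months. All 18 month samples were above all 6 month samples, with a log2 difference of 1.89 ± 0.97 (SE, limma adjusted p = 0.909), of which the size depends on the 0 in 6-month sample 2: it was 0.72 without that sample. The authors' deposited table gives Kcnk13 a log2 change of 1.21 ± 0.80 (SE). The 10 microglial markers summed to 674, 643 and 717 normalized counts at 18 months and 599, 599.9 and 507 at 6 months, also without overlap, with 8 of them higher in fitted mean and 0 called by limma (0 at an unadjusted p under 0.05). Their part in the Kcnk13 difference was not tested. Kcnk6, Kcnj2, Kcna3 and Kcna5 were at most 8.84 normalized counts in every hippocampus sample, with overlapping ages, and Kcnd1 averaged 4.78 ± 4.44 normalized counts at 18 months and 9.46 ± 2.39 at 6 months (SD, n = 3 each).

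A pair of channel genes of choroid plexus varied between samples more than between ages. Kcnj13, the inward rectifier Kir7.1 of choroid plexus epithelium, was at 27.4, 89.4 and 3.72 normalized counts at 18 months, against 5.29, 93.4 and 25.3 at 6 months. Kcne2, an auxiliary subunit of the same epithelium, was at 21.3, 26.7 and 0 normalized counts at 18 months, against 1.63, 16.3 and 5.77 at 6 months. Choroid plexus markers (10 genes, led by Ttr) summed to 4581, 13111 and 675 normalized counts at 18 months and 381, 9216 and 2932 at 6 months. The samples with the highest marker sums, 18-month sample 2 and 6-month sample 2, had the most Kcnj13, and those with the lowest, 18-month sample 3 and 6-month sample 1, the least within their age. The part of choroid plexus tissue in these levels was not tested. Kcnj13 shares 49.1% of its exon bases with Gigyf2 on the other strand. Kcnj13 and Kcne2 reached at most 1.49 and 0 CPM in microglia.

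**Figure D5:**
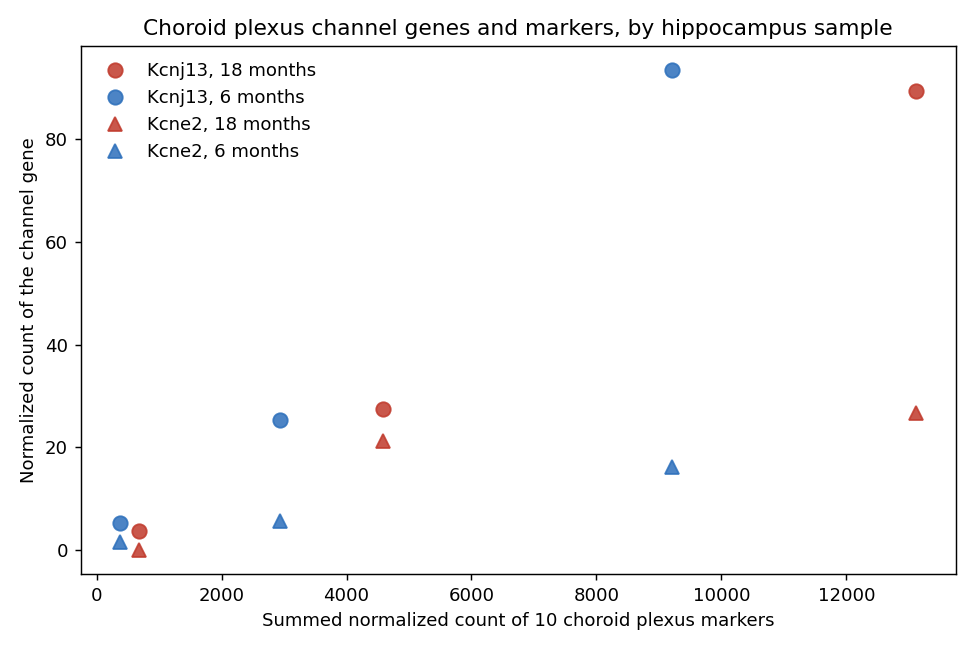
Normalized counts of Kcnj13 (circles) and Kcne2 (triangles) against the summed normalized counts of 10 choroid plexus markers, one point per hippocampus sample, 18 months in red and 6 months in blue. Kcnj13 lies between 3.72 and 93.4 and is highest in the samples of either age with the highest marker sums.

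Taking the members as a whole, limma called 0 of 71 tested genes in hippocampus, as it called 0 of all 13491 (background 0%), while the authors' deposited table called Kcnab2. At an unadjusted p under 0.05 there were 2 members higher (2.82%, background 2.13%) and 5 lower (7.04%, background 3.24%). The 18 month samples lay wholly above the 6 month samples for 4 members (5.63%) and wholly below for 6 (8.45%), beside backgrounds of 5.03% and 5.93%. Those below were Kcnab2, Kcnab1, Kcna2, Kcnb2, Kcnma1 and Kcne3, and those above Kcnh3, Kcnk13, Kcnk4 and Kcnj8. Kcnj8 and Kcne3 passed the filter through a single age and so had to differ. Both are among the separated members and among those at an unadjusted p under 0.05, so these counts cannot be read as support. Fitted means were higher at 18 months for 29 members (40.8%, background 47.2%) and lower for 42 (59.2%, background 52.8%). The median log2 difference over the tested members was -0.12, beside -0.037 over all tested genes. Neuronal markers were at 7755, 7967 and 8452 normalized counts at 18 months and 8549, 7858 and 7888 at 6 months, sums that overlap. Of the 35 tested neuronal channel genes 15 had a higher and 20 a lower fitted mean, and their sum was 1885, 1925 and 2074 normalized counts at 18 months and 2256, 2300.1 and 2103 at 6 months, without overlap. With Kcnab2 taken out, a comparison added after the data were seen, the sums were 1623, 1702 and 1758 at 18 months and 1775, 1783 and 1749.7 at 6 months, which overlap.

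Genes that work with potassium channels but do not carry the Kcn name were examined as a list of 33: channel partners, cyclic nucleotide-gated channels, the sodium-potassium pump and potassium-chloride cotransporters. In hippocampus 29 were tested, 0 were called higher or lower by limma, and at an unadjusted p under 0.05 there were 0 higher and 2 lower, beside 2.13% and 3.24% of all tested genes. Cntnap2, which anchors Kcna1 and Kcna2 channels beside the node of Ranvier, was at 81.9, 115 and 116 normalized counts at 18 months and 153, 168 and 164 at 6 months, wholly lower like Kcna2 and Kcnab2 (log2 difference -0.65 ± 0.22, SE, adjusted p = 0.877). Slc12a5, the neuronal chloride exporter, was at 158, 162 and 71.5 at 18 months and 192, 216 and 177 at 6 months. Lgi1, a secreted modulator of the same channels, lay the other way, at 223, 235 and 183 at 18 months and 138, 176 and 176 at 6 months. In microglia 12 of the list were tested and 0 were called by edgeR, with 2 higher and 0 lower at an unadjusted p under 0.05, beside 3.52% and 2.02% of all 10663 tested genes, of which 0 were called. These were Atp1b2, a pump subunit of astrocytes, at 9.97, 7.32 and 3.88 CPM at 24 months and 0 in the young libraries, which passed the filter through the old libraries alone and so had to differ, and Kctd12, an auxiliary protein of GABA-B receptors, at 261, 235 and 142 CPM at 24 months and 65.2, 113 and 116 CPM at 3 months (log2 difference 1.12 ± 0.33, SE, adjusted p = 0.646).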

How the data were processed

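Per the labels' protocols, RNA (Trizol) was primed on its poly(A) tails, copied with template switching, amplified in 12 PCR cycles and tagmented. Tools in the submitters' processing notes are kallisto, DESeq and DESeq2, with no version; 2 builds, GRCm39 and mm10, are listed and not tied to files. For microglia the authors deposited TPM, estimated counts and an average transcript length for each gene, per the file headers. For each tissue the authors also deposited normalized counts (signal after their scaling), a log2 fold change, a Wald statistic (a score), and a p-value and adjusted p-value, per the file headers. The authors' hippocampus log2 values run 6 over 18 months, as its sample values show, and were turned here to 18 over 6.

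Estimated counts were rounded and tested with edgeR 4.0.16 in R 4.3.3 (quasi-likelihood, TMM, filterByExpr) on the 6 microglia libraries. Normalized counts of the 6 hippocampus samples were tested with limma 3.58.1 (mean trend) on log2(normalized count + 1) for genes with at least 1 in at least 3 samples. This scale understates the changes of low genes with a value in every sample, and can overstate them where a sample is at 0. Low hippocampus values were whole multiples of a step for 46.9% to 59.3% of genes (tolerance 0.1), so reads were not recovered. P-values were two-sided and adjusted by Benjamini-Hochberg across the genes tested in each comparison, with a threshold of 0.05. The entry without a gene name held 0.0546% to 0.0771% of the microglia counts and 0.0233% to 0.0335% of the hippocampus signal and was left out. CPM is on the TMM-scaled library size. Both fits were run on simulated data as a check of the code. For microglia the simulated spread was a fixed setting and not that of these libraries, so the check does not measure power here. Exon overlap was taken from GENCODE M21 (GRCm38). Named genes were the members past a threshold, the 12 highest levels and up to 5 smallest p-values per direction in each tissue, and fixed lists of microglial, glial, mural and choroid plexus channels; other genes, such as Kcna1, Kcnma1, Kcnd2 and Kcnj3, were chosen after their values were seen. Some genes are not reported here. Members and lists were chosen with earlier results of these data known. Alternatives were other scalings, filters, pseudocounts, a transcript length offset, DESeq2 1.42.0, the replicate number as a block and leaving out libraries.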

Additional observations from a re-analysis of the deposited data

Results flagged for a closer look

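Kcnab2 and Kcnk13 had ages that did not overlap in either tissue, but in opposite directions. For Kcnk13 in microglia the gap was narrow, with 24-month library 3 at 192 CPM and 3-month library 3 at 194 CPM. Kcnab2 had a log2 difference of 7.84 in microglia (24 minus 3 months; the young libraries are at 0, so the fitted value is no bound) and of -0.75 in hippocampus (18 minus 6 months). Kcnab2 passed the microglia filter through the old libraries alone, so it had to differ there. Kcnk13 had -0.42 in microglia and 1.89 in hippocampus, the latter 0.72 without 6-month sample 2, where it was at 0. The ages compared differ between the tissues, and the difference between the tissues was not tested.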

How the results depend on the processing

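The count of potassium channel genes called stayed at 0 in both tissues under every scaling, filter, pseudocount, length offset and left-out library tried, apart from DESeq2's Wald test in microglia, which called 2 members (Kcnj9 at a log2 change of 9.84 and Kcnab2 at 7.34) and 248 genes in all. Leaving out 1 library at a time gave 0 to 55 called genes over the whole microglia table, the highest without 24-month library 3, and 0 to 1 over the hippocampus table, without 6-month sample 1. The 13 genes at 1 TPM in microglia were 11 to 14 with 1 library left out, 15 by a count in every library and 6 at 5 TPM. Directions turned with a left-out library for Kcnd1 (-0.29 to 0.086) and Kcnn4 (-0.33 to 7.80) in microglia, and when library 1 was dropped at both ages for Kcnj2 (0.014) and Kcnh7 (0.13). In hippocampus the log2 difference ranged, with 1 sample left out, from -0.24 to 0.17 for Kcnip4, from -0.28 to 0.0094 for Kcnip3, from -0.19 to 0.18 for Kcnk1, from -0.44 to 0.48 for Kcnab3, from -1.12 to 1.02 for Kcnj13, from -0.36 to 0.12 for Kcnn2, from -0.041 to 0.31 for Kcnc2, from -0.55 to 0.20 for Kcnj10, from -0.51 to 1.88 for Kcne2, from -1.07 to 0.59 for Kcna5, from -0.74 to 0.59 for Kcna3, from -1.29 to 0.36 for Kcnj2 and from -0.95 to 0.33 for Kcnk6, so no direction can be given for these genes; TMM rescaling put Kcnip4 at -0.0091. The causes were not tested. Kcnab2 kept its direction throughout, as did Kcna2 and Kcnb2 in hippocampus and Kcnk12, Kcnk6 and Kcnk13 in microglia. With 1 sample left out, the hippocampus ranges were -0.91 to -0.63 for Kcnab2, -1.12 to -0.85 for Kcna2 and -2.39 to -1.51 for Kcnb2. The microglia ranges were -3.62 to -2.34 for Kcnk12, -0.69 to -0.51 for Kcnk6 and -0.56 to -0.24 for Kcnk13. When library 1 was dropped at both ages, Kcnk12 was at -1.82 and Kcnk6 at -0.71, outside these ranges. Samples with the same replicate number did not pair (correlation of their deviations -0.010 to 0.085); with the replicate block, 0 potassium channel genes were called in microglia and 0 in hippocampus. Depth limits the hippocampus genes listed at a few normalized counts, which are a few reads.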
